A study of Mus musculus with 7 samples.

Results

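Histone H3 lysine 27 acetylation (H3K27ac) around protein-coding genes was compared between primary chondrocytes and primary dermal fibroblasts of the mouse, gene by gene and by functional family. The comparison used 3 of the 7 samples of the series, which were replicates 1 and 2 of chondrocyte H3K27ac and the single dermal fibroblast H3K27ac library. Each gene was scored by the number of H3K27ac peaks that reached within 50 kb of its transcription start site (TSS) and by the kilobases (kb) those peaks covered there. Of 22380 protein-coding genes in the mm9 annotation, 19716 could be placed at matching positions in both genome builds and were scored. A difference was counted only when both chondrocyte replicates gave it in the same direction.

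Chondrocytes came from rib cartilage of newborn mice after collagenase digestion, and dermal fibroblasts came from collagenase-digested dorsal skin of newborn mice and served as the negative control. Further chondrocyte libraries of the series were used only beside these results, namely H3K4me2 and the H3K27ac lists of WT mice and of E160(delta/delta);E308(delta/delta) mice, in which both copies of the Sox9 enhancers E160 and E308 are deleted. The labels give no genotype for the 3 compared libraries and do not say whether they came from separate animals or pools. In tissue-derived cultures such as these, more cells of a type and more acetylation per cell cannot be told apart.

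H3K27ac marks promoters and enhancers that are in use, and wide or clustered peaks tend to surround the genes that define a cell type. Chondrocytes build an extracellular matrix of type II, IX and XI collagen and aggrecan under the transcription factors SOX9, SOX5 and SOX6. Dermal fibroblasts of the back make a matrix of type I and III collagen with fibulins and other linker proteins, and carry dermal transcription factors such as TWIST2, TBX15 and EN1.

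The peak lists were not of one kind, and this bears on what follows. Replicate 1 held 25580 peaks on chromosomes 1 to 19 and X that covered 30.9 megabases (Mb), replicate 2 held 20450 over 18.3 Mb, and the fibroblast list held 19454 over 22.5 Mb. Replicate 1 and the fibroblast list shared a short format with no peak wider than 8512 bp and 8239 bp, whereas replicate 2 was in the narrowPeak format and reached 46443 bp. The lists carry no read numbers, so depth is unknown. Some promoters went against their labels: replicate 1 had no peak within 1 kb of the TSS of Sox9 or Col2a1, and the fibroblast list had none at Col1a1, Col1a2, Col3a1 or Prrx1, which are genes of dermal fibroblasts. The part of the list format in these gaps was not tested.

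The labelled cell types were checked by marker lists. Of 16 chondrocyte markers, 10 had a promoter peak in replicate 1, 14 in replicate 2 and 1, Sox9, in fibroblasts, and their summed width was 135.2 kb, 162.7 kb and 17.8 kb. Of 14 dermal fibroblast markers, 10 had a promoter peak in fibroblasts, 6 in replicate 1 and 9 in replicate 2, with a summed width of 88.1 kb, 55.2 kb and 56.4 kb. The WT and deletion chondrocyte lists went the other way, with 11 marked promoters of these fibroblast genes in each and a summed width of 160.4 kb and 105.1 kb, above the fibroblast list. The deletion list covered 23.6 Mb in all, close to the fibroblast list. Chondrocyte markers thus set the fibroblast list apart from both replicates, whereas fibroblast markers did not set it apart from every chondrocyte list. No promoter of 12 keratinocyte or 12 skeletal muscle genes held a peak in any of the 3 lists. Of 14 osteoblast genes, 2 had a promoter peak in replicate 1, 1 in replicate 2 and 1 in fibroblasts, and of 8 adipocyte genes, 3, 3 and 4 did.

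Sequences from the middle of 5 peaks are shown as examples of the acetylated DNA near genes that differed most, because each is the widest peak away from any TSS that the other cell type lacked at that gene. They are 300 bases of the plus strand of mm9, with every match to the motifs searched in capitals. The Acan window, chr7:86188344-86188643, lies 9.9 kb upstream of the TSS, outside protein-coding genes and within the annotated transcript unit Gm16936, and its capitals mark a homeodomain motif. The Col9a1 window, chr1:24202544-24202843, lies 18.2 kb downstream of the TSS in an intron of Col9a1, and the Cnmd window, chr14:80077206-80077505, is intergenic and 15.4 kb upstream. Capitals in both mark an AP-1 motif. In fibroblasts, the Sfrp2 window, chr3:83560211-83560510, is intergenic and 9.9 kb upstream, with a TWIST E-box in capitals, and the Ccl7 window, chr11:81833075-81833374, is intergenic and 26.0 kb upstream, with a TEAD motif.
Acan: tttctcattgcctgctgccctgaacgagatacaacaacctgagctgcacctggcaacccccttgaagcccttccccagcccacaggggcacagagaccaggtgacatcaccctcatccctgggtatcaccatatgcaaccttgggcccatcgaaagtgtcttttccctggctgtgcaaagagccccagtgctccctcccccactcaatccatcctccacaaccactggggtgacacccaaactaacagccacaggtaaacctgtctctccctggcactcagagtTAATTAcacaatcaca
Col9a1: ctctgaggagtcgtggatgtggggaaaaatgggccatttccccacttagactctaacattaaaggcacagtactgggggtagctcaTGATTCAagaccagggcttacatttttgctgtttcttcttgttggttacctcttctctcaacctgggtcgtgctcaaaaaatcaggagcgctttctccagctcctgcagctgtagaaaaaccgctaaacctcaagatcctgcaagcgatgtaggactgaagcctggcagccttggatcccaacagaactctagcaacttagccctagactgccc
Cnmd: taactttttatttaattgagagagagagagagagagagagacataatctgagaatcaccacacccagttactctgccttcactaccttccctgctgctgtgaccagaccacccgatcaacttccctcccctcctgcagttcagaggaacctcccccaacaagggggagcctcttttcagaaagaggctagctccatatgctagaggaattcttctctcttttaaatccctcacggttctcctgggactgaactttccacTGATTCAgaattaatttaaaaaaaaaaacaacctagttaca
Sfrp2: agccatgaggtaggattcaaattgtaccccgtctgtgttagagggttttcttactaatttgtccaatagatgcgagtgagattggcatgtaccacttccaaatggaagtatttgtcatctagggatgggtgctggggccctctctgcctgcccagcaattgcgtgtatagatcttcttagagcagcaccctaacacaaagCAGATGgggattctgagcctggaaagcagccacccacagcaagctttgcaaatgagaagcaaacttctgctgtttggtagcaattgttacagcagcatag
Ccl7: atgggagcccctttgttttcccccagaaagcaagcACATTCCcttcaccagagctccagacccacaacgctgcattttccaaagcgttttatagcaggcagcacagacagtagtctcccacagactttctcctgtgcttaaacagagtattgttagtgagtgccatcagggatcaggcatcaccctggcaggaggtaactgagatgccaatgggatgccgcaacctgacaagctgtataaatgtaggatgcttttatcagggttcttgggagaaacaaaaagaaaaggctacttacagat

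The motifs were searched on both strands in such windows at the middle of every replicate 1 and fibroblast peak, as AP-1 (TGANTCA), TEAD (ACATTCC), a homeodomain motif (TAATTA), the TWIST E-box (CATCTG), a SOX site (ACAATGG), RUNX (TGTGGTT), paired SOX sites and NFI. Their shares are given beside those of all distal peaks, those over 1 kb from the TSS of every matched protein-coding gene. Of 816 distal replicate 1 peaks that no fibroblast peak met near genes higher in chondrocytes, 2.45% held the SOX site, 11.8% AP-1 and 6.13% the homeodomain motif, against 3.02%, 13.3% and 8.32% of all 15955 distal replicate 1 peaks. Of 628 distal fibroblast peaks that replicate 1 lacked near genes higher in fibroblasts, 25.2% held the TWIST E-box and 5.1% TEAD, against 23.6% and 5.29% of all 10227 distal fibroblast peaks. The TWIST E-box was also in 22.2% of the 816 chondrocyte peaks, against 20.8% of all distal replicate 1 peaks. The SOX site was in 3.66% of the 628 fibroblast peaks, against 3.74% of all distal fibroblast peaks. RUNX was in 7.97% of the 816 chondrocyte peaks, against 7.65% of all distal replicate 1 peaks. Paired SOX sites were in 0.61% of the 816 and NFI in 0.12%, against 0.64% and 0.04%. A match of these letters is a description and not a binding site.

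By peak width, 438 genes were higher in chondrocytes and 569 were higher in dermal fibroblasts in both replicates, or 2.22% and 2.89% of the genes scored. A gene was called when its covered kb, scaled so that the lists had equal total covered width and with 1 kb added, differed at least 2-fold in each replicate. With 2 libraries against 1 no p-value is given, since the smallest that an exact one-sided permutation test allows is 0.333. Replicate 1 alone gave 718 genes higher in chondrocytes and replicate 2 alone 738. In the fibroblast direction the replicates gave 993 and 1028. The directions are not on an equal footing, since a peak missed in the single fibroblast list is enough for a call toward chondrocytes, whereas a call toward fibroblasts needs low values in both replicates. Neighbouring genes share peaks, and the calls fell in 289 and 395 separate loci, where called genes within 100 kb of each other were joined.

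**Figure D1:**
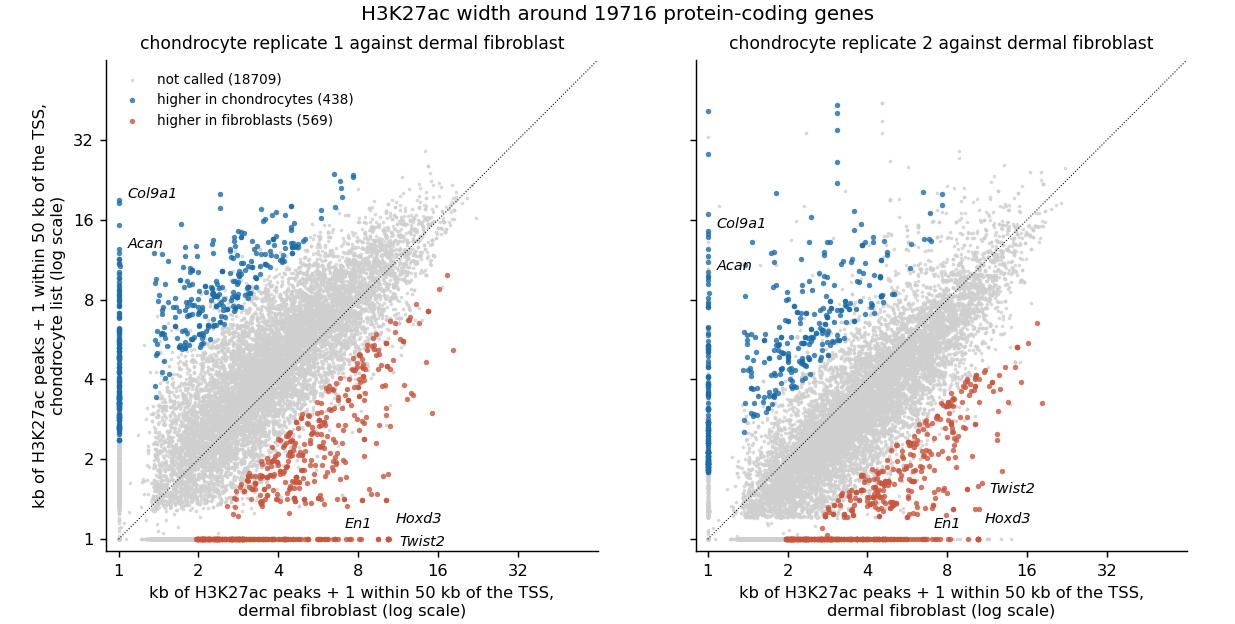
Kilobases of H3K27ac peaks plus 1 within 50 kb of each TSS as deposited and unscaled, chondrocyte replicate 1 (left) and replicate 2 (right) on the vertical axis against dermal fibroblasts on the horizontal axis, both log scales. Each point is 1 of 19716 genes, the 438 genes higher in chondrocytes are blue, the 569 higher in fibroblasts are red, and the dotted line marks equal width.

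By peak number, 1246 genes had at least 2 more peaks in each chondrocyte replicate than in fibroblasts (6.32%), and 642 had at least 2 fewer (3.26%). Peak number was not scaled, and the fibroblast list held the fewest peaks. Both width and number called 317 genes higher in chondrocytes (1.61%) and 315 higher in fibroblasts (1.6%). Families and named genes are given by width below.

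The leading genes of the chondrocyte direction were led by cartilage matrix genes and by Sim2, a basic helix-loop-helix transcription factor. Sim2 had 18.1 kb in replicate 1 and 12.8 kb in replicate 2, and was listed at 0 in fibroblasts. Its peaks formed a group of 7 in replicate 1, of which 6 were met in replicate 2 at the same distance from the TSS within 1 kb. Sim2 also had 25.5 kb in WT and 21.5 kb in the deletion list, so that all 4 chondrocyte libraries held wide acetylation there.

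Col9a1, which encodes a chain of type IX collagen, had 17.4 kb and 13.2 kb in the chondrocyte replicates and 0 in fibroblasts. The widest of its peaks, 6823 bp in replicate 1 and 5103 bp in replicate 2, was centred 18.2 kb downstream of the TSS in both. Acan, the gene of aggrecan, had 10.98 kb and 8.85 kb, and 0 in fibroblasts. It carried a promoter peak of 4443 bp and 5022 bp and an upstream peak of 3158 bp and 1836 bp, the region printed above. Cnmd (Lect1 in the older annotation), the gene of the cartilage glycoprotein chondromodulin, had 11.4 kb in each replicate and 0 in fibroblasts, and all 4 of its replicate 1 peaks were met in replicate 2. At these 3 genes both replicates lay above fibroblasts, which the call itself requires.

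Hapln1, the link protein that fastens aggrecan to hyaluronan, had 8.69 kb and 5.28 kb and was listed at 0 in fibroblasts. Ucma, a secreted protein of the upper growth plate, had 8.66 kb and 10.7 kb, and Fgfr3, the receptor that restrains growth plate cartilage, had 9.03 kb and 13.5 kb, both against 0. All 3 peaks of Ucma and all 6 of Fgfr3 in replicate 1 were met in replicate 2. Fosl2, an AP-1 subunit, had 9.73 kb and 7.45 kb, most of it in a single peak over its promoter, of 7620 bp and 7045 bp. The only fibroblast peak near Fosl2 touched the window for 0.014 kb. The Fosl2 call was lost with the higher-scoring peaks, without peaks at a TSS and with peaks of at most 5 kb, and the Fgfr3 call with a window of 100 kb.

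The other leading genes were Tox, Epha2, Fzd9 and Wdr35. Epha2, an ephrin receptor, had 6.99 kb and 7.12 kb, and Fzd9, a Wnt receptor, had 7.32 kb and 4.06 kb, each against 0. Tox, a nuclear HMG-box protein, had 9.13 kb and 4.88 kb against 0, and only 1 of its 4 replicate 1 peaks was met in replicate 2. Wdr35, an intraflagellar transport gene, had 19.1 kb and 12.2 kb against 1.41 kb in fibroblasts, where its promoter was also marked. Wdr35 adjoins Matn3, the cartilage matrix gene matrilin 3, and shares peaks with it, so width in the window cannot be told apart between the 2 genes. The calls of Wdr35 and Fzd9 were lost with a window of 100 kb, and that of Tox without peaks at a TSS.

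**Figure D2:**
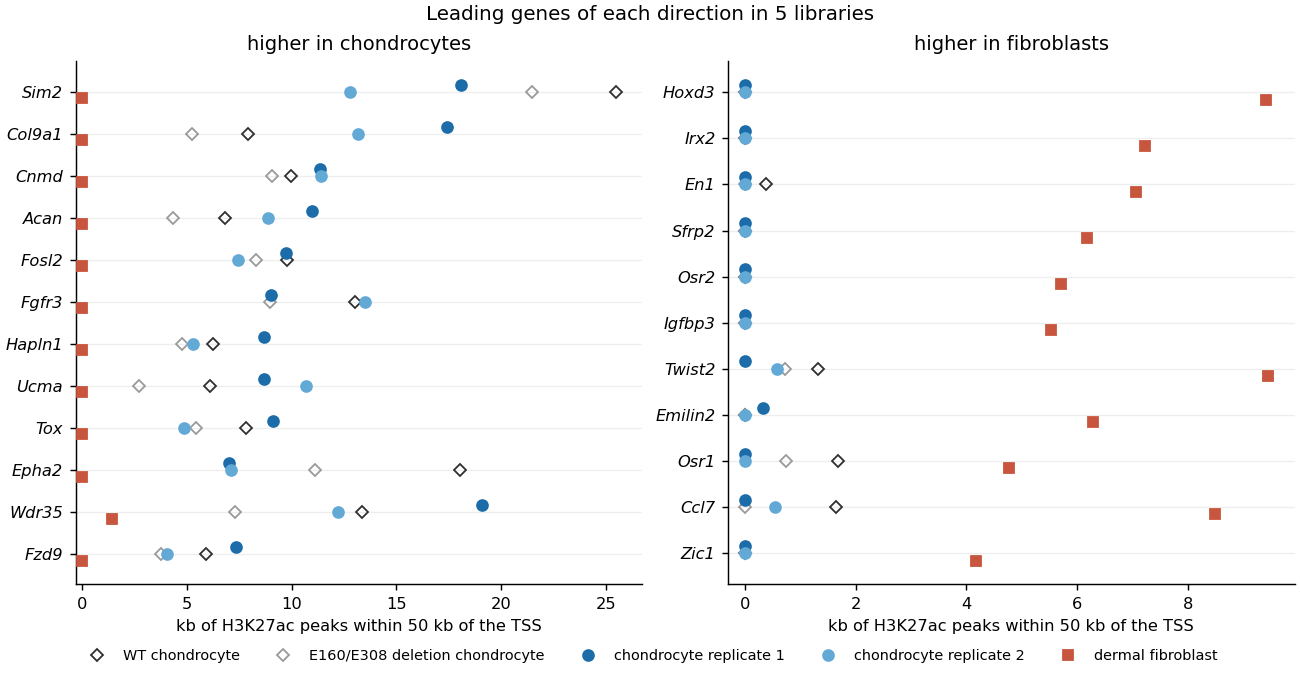
Kilobases of H3K27ac peaks within 50 kb of the TSS for the leading genes of each direction described here, unscaled. Filled circles are chondrocyte replicates 1 and 2, squares dermal fibroblasts, and open diamonds the WT and E160/E308 deletion chondrocyte libraries, which played no part in the calls. At Sim2, Col9a1 and Acan the fibroblast square lies at 0, and at Irx2, Sfrp2 and Igfbp3 all chondrocyte symbols lie at 0.

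The fibroblast direction was led by positional and dermal transcription factors. Hoxd3, in the HoxD cluster of homeobox genes, had 9.41 kb in fibroblasts and 0 in both chondrocyte replicates, WT and the deletion list. Irx2, a homeobox gene, had 7.23 kb in fibroblasts and 0 in all 4 chondrocyte lists. En1, a homeobox gene of dorsal dermal cells, had 7.07 kb in fibroblasts, 0 in both replicates and 0.391 kb in WT. Chondrocyte H3K4me2 covered 22.3 kb at Hoxd3, 6.24 kb at Irx2 and 6.82 kb at En1, where the median of all genes was 6.61 kb, so only Hoxd3 stood well above that level.

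Osr1 and Osr2, zinc finger genes of mesenchyme, had 4.77 kb and 5.7 kb in fibroblasts and 0 in both replicates. The calls of Osr1 and Hoxd3 were lost without peaks at a TSS. Zic1, a zinc finger gene of the dorsal body, had 4.17 kb against 0 and 0. Twist2, which marks dermal cells, had 9.45 kb in fibroblasts, 6649 bp of it over the promoter. Its chondrocyte values were 0 in replicate 1 and 0.588 kb in replicate 2, where 2 small peaks sat at the promoter.

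Secreted proteins made up most of the rest. Sfrp2, a Wnt modulator of dermal fibroblasts, had 6.18 kb in fibroblasts, and Igfbp3, an insulin-like growth factor binding protein, had 5.52 kb, each against 0 in all 4 chondrocyte lists. Emilin2, an elastic matrix protein, had 6.29 kb in fibroblasts, 0.331 kb in replicate 1 and 0 in replicate 2. Ccl7, a chemokine, had 8.48 kb in fibroblasts, 0 in replicate 1 and 0.549 kb in replicate 2.

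**Figure D3:**
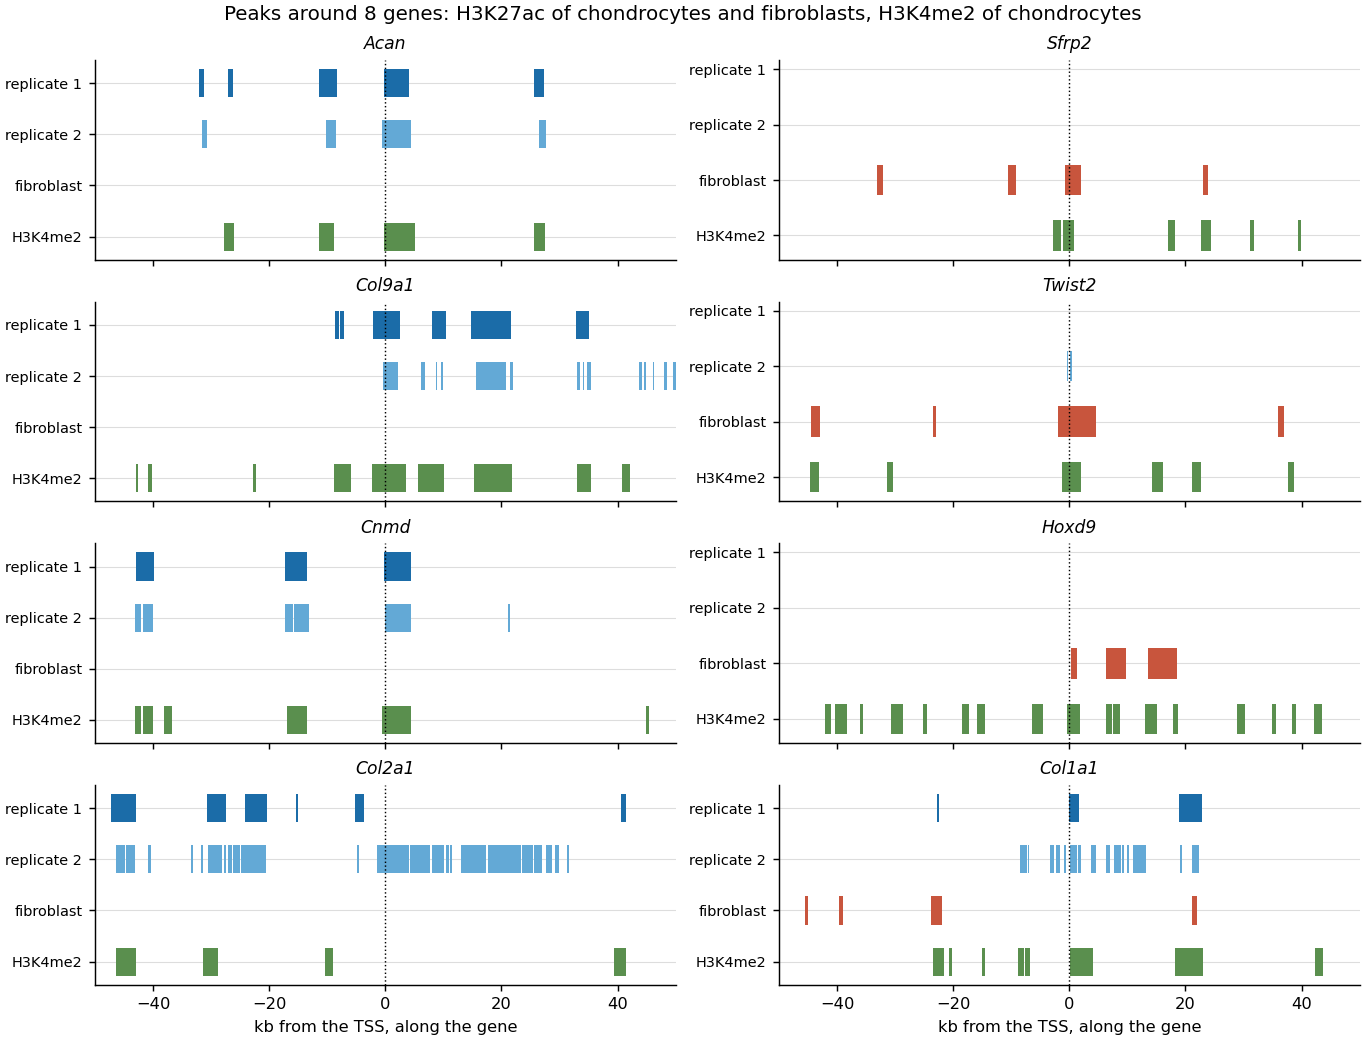
Peaks within 50 kb of the TSS of 8 genes by distance along the gene, for H3K27ac of chondrocyte replicates 1 and 2 and dermal fibroblasts and for H3K4me2 of chondrocytes. Both replicates placed peaks at matching distances at Acan, Col9a1 and Cnmd with none in fibroblasts, only fibroblasts had wide H3K27ac peaks at Sfrp2, Twist2 and Hoxd9, and replicate 1 had no peak over the Col2a1 promoter where replicate 2 did.

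Functional families were then compared, with 630 genes scored in 29 lists. Of these, 65 were higher in chondrocytes and 62 higher in fibroblasts. The share of each family is given beside 2.22% and 2.89% of all genes. Members were chosen with earlier results of these data known, so higher shares may follow in part from the choice, and no test was made. For all genes the median width was 1.95 kb in replicate 1, 1.1 kb in replicate 2 and 1.62 kb in fibroblasts.

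Cartilage collagens differed most. Of 8 scored, 6 were higher in chondrocytes and 0 in fibroblasts, and the median width was 10.4 kb, 12.1 kb and 0.773 kb in replicate 1, replicate 2 and fibroblasts. Col2a1, the main collagen of cartilage, had 14.3 kb and 40.02 kb against 0, with 6 peaks in replicate 1 and 23 in replicate 2. Most of the surplus in replicate 2 lay at and downstream of the TSS, where replicate 1 had no peak until 40.6 kb.

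Col11a1, a chain of type XI collagen, had 8.08 kb and 15.9 kb against 0. Col9a2 had 4.79 kb and 4.04 kb against 0.923 kb, Col9a3 had 12.5 kb and 11.9 kb against 2.82 kb, and Col27a1, a fibrillar collagen of cartilage, had 11.6 kb and 11.1 kb against 0.773 kb. Col11a2 was not called. It had 9.15 kb and 12.2 kb against 4.7 kb, a log2 difference of only 0.43 in replicate 1.

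Of 21 aggrecan and other cartilage matrix genes, 10 were higher in chondrocytes and 0 in fibroblasts, with medians of 7.38 kb, 3.13 kb and 1.34 kb. Beside Acan, Hapln1, Cnmd and Ucma these were Comp, Matn3, Matn4, Snorc, Cytl1 and Susd5. Comp, a pentameric glycoprotein that binds collagen, had 7.38 kb and 4.44 kb against 1.4 kb, with log2 differences of 1.42 and 1.44, and was not called with a window of 100 kb. Cytl1, a small secreted protein of cartilage, had 7.67 kb and 3.1 kb against 0. Snorc, a chondrocyte proteoglycan, had a single peak in each replicate, giving 3.76 kb and 3.47 kb against 0. Matn1, matrilin 1, was not called, since it had 1.79 kb in replicate 1 but 0 in replicate 2, WT and the deletion list.

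Genes of glycosaminoglycan synthesis and sulfation, some of which make the chondroitin sulfate chains of aggrecan, followed with 7 of 31 higher in chondrocytes (22.6%) and 0 in fibroblasts. Xylt1, which starts the chains, had 12.2 kb and 8.44 kb against 2.65 kb, and Csgalnact1, which commits them to chondroitin, had 11.2 kb and 9.06 kb against 1.62 kb. Chsy1 and Chst11 extend and sulfate them. Chst11 had 6.64 kb and 3.41 kb against 0.899 kb, and Chsy1 had 11.04 kb and 7.24 kb against 3.51 kb, just past the threshold with log2 differences of 1.01 and 1.14. Slc26a2, the sulfate transporter, had 9.95 kb and 5.65 kb against 2.57 kb. Has2 and Extl1 completed the 7. Promoters of 22 and 23 of the 31 were marked in the replicates and 24 in fibroblasts, so promoter marking did not set the cell types apart. The count fell to 4 without scaling and to 3 with peaks of at most 5 kb. With WT in place of the replicates 2 of the 31 were higher in chondrocytes, with the deletion list 1, and at 4-fold 1.

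Of 27 genes of collagen folding and secretion, 4 were higher in chondrocytes and 1 in fibroblasts. Loxl4, a lysyl oxidase that crosslinks collagen, had 13.5 kb and 12.2 kb against 1.82 kb. Plod2, which hydroxylates collagen lysines, had 7.88 kb and 10.4 kb against 1.25 kb, and P4ha2 and P3h2, which hydroxylate prolines, were also called. P4ha3 was higher in fibroblasts, with 5.73 kb against 2.44 kb and 1.5 kb. Without scaling the chondrocyte count was 2.

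Of 27 chondrogenic transcription factors, 3 were higher in chondrocytes (11.1%), namely Runx2, Foxc1 and Foxc2, and Shox2 was higher in fibroblasts. The chondrocyte count was 7 with replicate 2 alone, 8 with WT and 9 with the deletion list. Runx2, which drives chondrocyte hypertrophy and bone formation, had 11.4 kb and 5.55 kb against 1.62 kb. Foxc1, a forkhead factor of the skeleton, had 7.56 kb and 8.74 kb against 0. Foxc2 stood at 7.27 kb and 4.47 kb against 1.29 kb, the values of its neighbour Foxf1, since both windows held the same peaks. Shox2 had 3.3 kb in fibroblasts, 0.88 kb in replicate 1 and 0 in replicate 2.

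None of the SOX trio was called. Sox9 had 0.521 kb in replicate 1, 5.8 kb in replicate 2 and 1.3 kb in fibroblasts, with a promoter peak in replicate 2 and fibroblasts but not in replicate 1. WT and the deletion list, which share the format of replicate 2, had 8.25 kb and 7.35 kb at Sox9. Sox6 had 1.24 kb and 9.13 kb against 0, so that both replicates were above fibroblasts but replicate 1 fell just short of the threshold. Sox6 was called toward chondrocytes without scaling, with a pseudocount of 0.5 kb, and with either replicate, WT or the deletion list alone. Sox5 had 0.543 kb in replicate 1 and 0 in all other H3K27ac lists. For Sox9 the order of the lists within 50 kb of the TSS was thus replicate 2 over fibroblasts over replicate 1, and the 2 cell types overlapped there. The enhancers E160 and E308 lie further upstream, outside this window. The paper reports strong chondrocyte peaks at the promoter and body of Sox9 that were low in dermal fibroblasts. It also reports acetylated E160 and E308 in chondrocytes, with very weak peaks in fibroblasts.

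Toward chondrocytes, signalling families had smaller shares of calls than cartilage matrix genes. The shares lay above the 2.22% of all genes but rested on few calls, and on 1 of 19 for TGF-beta genes. Under alternatives that kept both replicates and the 2-fold threshold, the counts varied. They were 3 to 6 for Wnt, 1 to 5 for BMP and GDF, 0 to 3 for FGF and 1 to 2 for TGF-beta genes. Toward fibroblasts the shares were 5.0% for Wnt genes and 0 for FGF and TGF-beta genes, against 2.89% of all genes. Of 40 Wnt genes, 5 were higher in chondrocytes (12.5%) and 2 in fibroblasts (5.0%). The 5 were the receptors Fzd6, Fzd9 and Lrp4, the agonist Rspo3 and the nuclear effector Tcf7l2, which had 5.07 kb and 4.88 kb against 0.402 kb. Lrp4 had 8.04 kb and 6.59 kb against 1.12 kb. Dkk3, a secreted Dickkopf family member, was higher in fibroblasts, with 4.48 kb against 0.663 kb and 0, and so was the R-spondin receptor Lgr5, with 1.31 kb against 0 in both replicates.

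Of 31 BMP and GDF genes, 3 were higher in chondrocytes (9.68%). Bmp5, a ligand of skeletal growth, had 6.59 kb and 4.57 kb against 0, and the ligand Bmp6 had 3.28 kb and 1.36 kb against 0. Chrdl1, an antagonist, was called with 2.63 kb and 0.794 kb against 0, just past the threshold in replicate 2. Of 16 FGF genes, Fgfr3 and the decoy receptor Fgfrl1 were higher in chondrocytes (12.5%) and 0 in fibroblasts. Fgfrl1 had 10.2 kb and 12.8 kb against 3.19 kb, a log2 difference of only 1.01 in replicate 1. Both FGF calls were lost with a window of 100 kb, where 0 of the family were higher in chondrocytes.

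Of 19 TGF-beta genes, the ligand Tgfb2 alone was called, with 7.01 kb and 5.83 kb against 1.23 kb. In the growth plate and Hedgehog list of 18 genes, 2 were higher in chondrocytes. Smo, which transduces Hedgehog signals, had 9.7 kb and 6.4 kb against 2.41 kb, and Stc2, a secreted glycoprotein, had 4.22 kb and 3.17 kb against 0.733 kb. Integrins gave 2 calls in each direction among 15 genes, with Itgb6 and Itgb8 higher in chondrocytes and Itga4 and Itgb3 higher in fibroblasts. Neither Itgb6 nor Itgb3 had a promoter peak in any of the 3 lists.

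**Figure D4:**
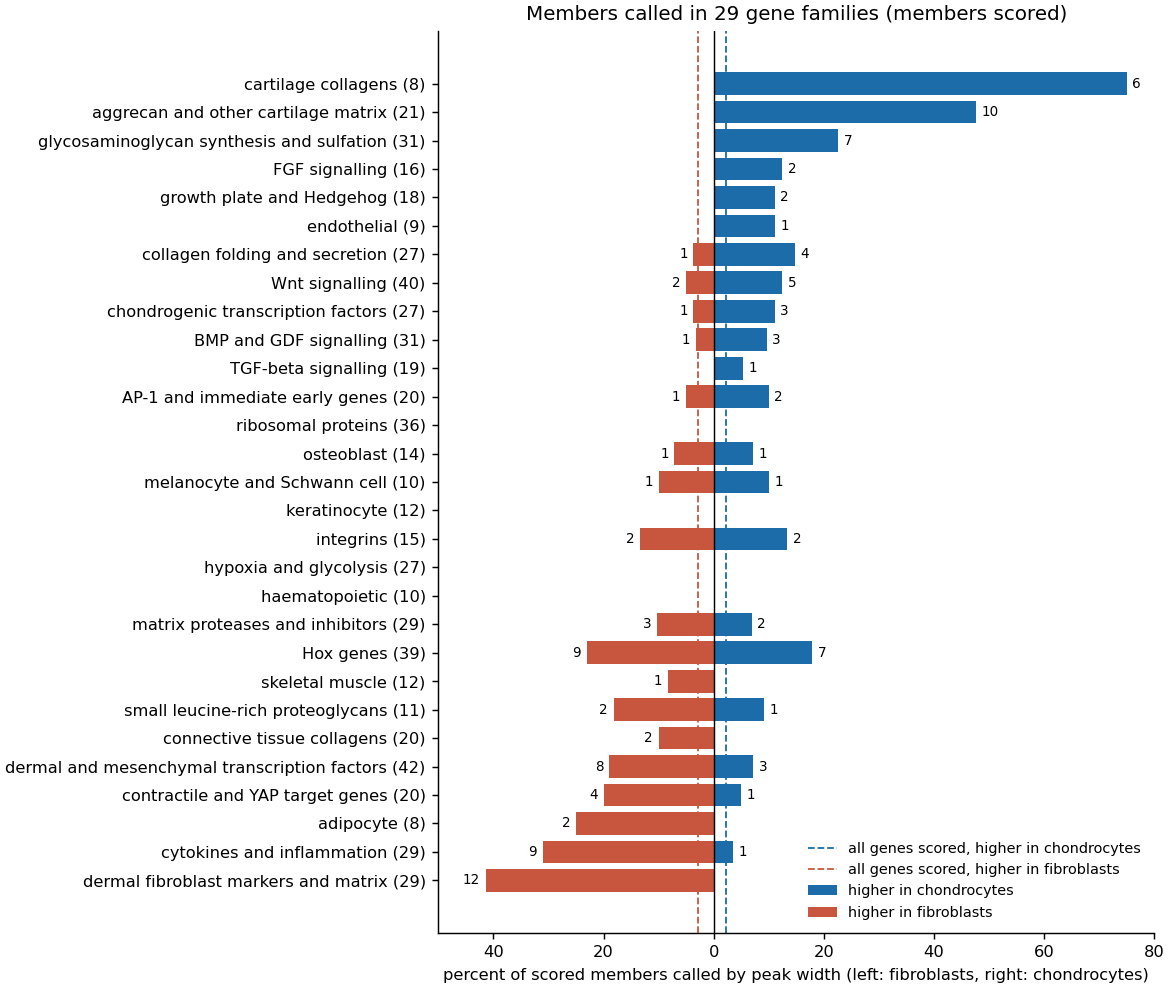
Percent of scored members of 29 gene families called by peak width in both replicates, to the right for genes higher in chondrocytes and to the left for genes higher in fibroblasts, with the number called at each bar and the number scored in parentheses. Dashed lines mark the share of all genes, 2.22% and 2.89%, and members were chosen with earlier results of these data known. Cartilage collagens (6 of 8) and cartilage matrix genes (10 of 21) reach furthest right, and dermal fibroblast markers and matrix genes (12 of 29) furthest left.

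Dermal fibroblast markers and matrix genes gave the most calls in the fibroblast direction, with 12 of 29 higher in fibroblasts (41.4%) and 0 in chondrocytes. The medians were 1.68 kb, 1.17 kb and 4.08 kb. Fbln2 and Fbln1, fibulins of dermal elastic matrix, had 14.2 kb and 5.42 kb in fibroblasts. Fbln2 had 2.0 kb and 2.92 kb in the replicates, and Fbln1 had 0.825 kb and 0.

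Dpt, dermatopontin, had 3.1 kb in fibroblasts and 0 in all 4 chondrocyte lists. Ly6a, a surface antigen of fibroblast progenitors, had 7.42 kb against 1.39 kb and 0.3 kb, and Lrig1, a receptor inhibitor of skin progenitors, had 6.14 kb against 0.96 kb and 0.511 kb. Tnxb, Mfap4, Crabp1, Cd34, Postn and Sfrp2 were also called. Pdgfra, the receptor of mesenchymal growth factors, had 5.63 kb in fibroblasts against 0.421 kb and 1.17 kb, but nearly all of this was a single promoter peak of 5189 bp. Its mean log2 difference turned from -1.92 to 0.31 when only peaks of at most 5 kb were used, and WT held 9.0 kb there.

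Of 42 dermal and mesenchymal transcription factors, 8 were higher in fibroblasts (19.05%) and 3 in chondrocytes. This balance turned with the other chondrocyte lists: with WT in place of the replicates 13 were higher in chondrocytes and 6 in fibroblasts, and with the deletion list 11 and 6. Tbx15, a T-box factor of dorsal skin, had 4.13 kb in fibroblasts, 0.631 kb in replicate 1 and 0.372 kb in replicate 2, with log2 differences of -1.84 in both, and was not called with a window of 100 kb or without peaks at a TSS. Tbx18 had 2.27 kb against 0 and 0.209 kb, and Nr2f1, a nuclear receptor, had 1.35 kb against 0 in both. Prrx2 had 10.8 kb against 4.57 kb and 2.93 kb. Twist1, Alx1 and Foxf1 were higher in chondrocytes, and Alx1, a homeobox factor, had 2.83 kb and 8.51 kb against 0. Twist1 and Twist2, which are close relatives, thus lay on opposite sides, with Twist1 at 2.47 kb and 2.49 kb in the replicates and 0 in fibroblasts.

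Cytokines and inflammatory genes were higher in fibroblasts in 9 of 29 cases (31.0%) and in chondrocytes in 1. Ccl2, Ccl7 and Ccl11 share 1 locus, with 8.48 kb at Ccl2 and 6.38 kb at Ccl11 in fibroblasts and 0.549 kb at most in the replicates. Cxcl12, a stromal chemokine, had 4.12 kb against 0 and 0.374 kb. Il6 had 3.36 kb against 1.44 kb and 0, and Ptges, which makes prostaglandin E, had 5.56 kb against 1.33 kb and 1.07 kb. Il33, Il1r1 and Cxcl5 were also called. Tnfrsf11b, the decoy receptor osteoprotegerin, was higher in chondrocytes, with 6.83 kb and 4.18 kb against 0.838 kb.

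Of 20 connective tissue collagens, 2 were higher in fibroblasts and 0 in chondrocytes, a share above the 2.89% of all genes. Without peaks at a TSS, 6 were higher in fibroblasts and 3 in chondrocytes. The main collagens of dermis were not among the 2. Col14a1, a collagen of dermal fibrils, had 3.56 kb in fibroblasts against 1.17 kb and 0, and Col6a2 had 9.13 kb against 2.82 kb and 2.65 kb. Col1a1, the main collagen of dermis and bone, had 3.69 kb in fibroblasts against 5.99 kb and 11.9 kb, and Col1a2 had 11.3 kb against 8.41 kb and 6.53 kb. Col3a1 had 3.26 kb against 3.9 kb and 2.22 kb. The fibroblast list lacked a promoter peak at Col1a1, Col1a2 and Col3a1, and the part of this gap in their values was not tested. The paper reports high Col1a1 expression in dermal fibroblasts, and peaks at that gene. At Col1a1 the fibroblast value lay below both replicates, WT had 31.1 kb and the deletion list 24.98 kb, and the gene was called toward chondrocytes with the higher-scoring peaks, replicate 2 alone, WT or the deletion list. At Col3a1 the fibroblast value lay between the replicates. With WT or the deletion list in place of the replicates 4 of these collagens were higher in chondrocytes and 1 in fibroblasts.

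Among 11 small leucine-rich proteoglycans, which organise collagen fibrils, Fmod was higher in chondrocytes and Bgn and Podn in fibroblasts. Fmod, fibromodulin, had 4.98 kb and 3.27 kb against 1.06 kb. Podn, podocan, had 11.9 kb in fibroblasts against 2.48 kb and 0.809 kb. Bgn, biglycan, had 13.6 kb in fibroblasts against 6.24 kb and 4.31 kb, yet fewer peaks, 3 against 5 and 8. Dcn and Lum, which adjoin each other, were not called, and Dcn had 10.045 kb and 4.72 kb against 6.76 kb, so that the fibroblast value lay within the range of the chondrocytes. Prrx1, a mesenchymal homeobox gene, had 11.99 kb and 17.8 kb against 8.04 kb and was not called. Prrx1 was called toward chondrocytes with a window of 25 kb, the higher-scoring peaks, nearest-TSS assignment, replicate 2 alone, WT or the deletion list.

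Hox genes gave calls in both directions, and each direction came from 1 cluster. All 9 Hox genes higher in fibroblasts lay in HoxD, on chromosome 2, and 8 of them had the same 3 fibroblast peaks of 9.41 kb in their windows. Hoxd13 alone had a replicate 1 peak, of 0.761 kb, and Hoxd1 had 3.22 kb in fibroblasts. Chondrocyte H3K4me2 at Hoxd9 covered 22.7 kb. The 7 Hox genes higher in chondrocytes lay in HoxA, on chromosome 6. Hoxa13 had 6.58 kb in replicate 1 and 9.19 kb in replicate 2 against 0 in fibroblasts, and Hoxa6 had 7.92 kb and 42.3 kb against 2.07 kb. With WT or the deletion list in place of the replicates, 19 and 18 Hox genes were higher in chondrocytes and 9 in fibroblasts. The 7 HoxA calls rested on peaks wider than 5 kb, and with narrower peaks only, 0 were called, whereas the 9 HoxD calls were all found.

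The remaining families held few calls or none. No ribosomal protein gene of 36, no hypoxia or glycolysis gene of 27 and no haematopoietic or keratinocyte gene was called in either direction. Ribosomal promoters were marked at 35 of 36 genes in each replicate and 34 in fibroblasts, with median widths of 5.16 kb, 3.63 kb and 4.18 kb. Of 20 contractile and YAP target genes, 4 were higher in fibroblasts, Lmod1 and the matricellular genes Ccn3, Ccn4 and Ccn5, and Tpm1, a tropomyosin, was higher in chondrocytes. With WT 0 of these were higher in fibroblasts and 3 in chondrocytes, and with the deletion list 2 and 5. Of 29 matrix proteases and inhibitors, Adam12, Adamts2 and Htra1 were higher in fibroblasts, and Mmp16 and Timp1 in chondrocytes. Of 20 AP-1 and immediate early genes, Fosl2 and Klf2 were higher in chondrocytes and Nr4a1 in fibroblasts.

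Of the 8 adipocyte genes, Plin1 and Lpl were higher in fibroblasts, with 4.7 kb and 5.82 kb there. Plin1 had 1.81 kb and 1.33 kb in the replicates, and Lpl had 0.688 kb and 0.882 kb. In the melanocyte and Schwann cell list, S100b, which cartilage also expresses, was higher in chondrocytes with 6.21 kb and 3.87 kb against 1.02 kb. Mitf, the melanocyte master factor, was higher in fibroblasts with 8.56 kb against 1.69 kb and 0. Of the 10 genes of this list, 5 had a promoter peak in replicate 1, 3 in replicate 2 and 3 in fibroblasts. Among them Pmel was marked in all 3 lists and Mlana in replicate 1, while Sox10, Tyr, Dct and Foxd3 were not marked in any of the 3. Whether other cells had a part in the Mitf value was not tested. Dlx6 and Ifitm5 in the osteoblast list, Mymk in the muscle list and Sox7 in the endothelial list were called without a promoter peak in any of the 3 lists.

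The called genes were next described by where their acetylation lay. Of the 438 genes higher in chondrocytes, 94 (21.5%) had a promoter peak in both replicates and not in fibroblasts. Another 144 (32.9%) had one in all 3 lists and 148 (33.8%) in none, where a promoter peak is one within 1 kb of the TSS. Fibroblasts had 0 peaks in the whole window at 166 of the 438 (37.9%). Of the 569 genes higher in fibroblasts, 181 (31.8%) had a promoter peak in fibroblasts alone, 84 (14.8%) in all 3 lists and 215 (37.8%) in none. Both chondrocyte replicates had 0 peaks at 204 of the 569 (35.9%). Among all genes, 1.71% had a promoter peak in both replicates alone and 3.86% in fibroblasts alone. A further 37.6% had one in all 3 lists and 46.7% in none. At 23.0% of all genes no list of the 3 had a peak in the window, and the lower quartile of width was 0 kb in each. Calls came from promoters as well as from peaks further out.

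At genes higher in chondrocytes, 11.2% and 12.03% of the acetylated bases of the replicates lay within 1 kb of the TSS, against 19.3% and 21.3% at all genes. In fibroblasts, 34.7% of the few bases at the same genes lay there, against 23.8% at all genes. For genes higher in fibroblasts the fibroblast share within 1 kb was 17.1%. These shares follow in part from the choice of the genes, which were called for width in the whole window while at most 2 kb can lie within 1 kb of a TSS, and no test was made of them. In kb the acetylation there was not less: genes higher in chondrocytes had a mean of 0.775 kb within 1 kb in replicate 1 against 0.565 kb at all genes, and genes higher in fibroblasts had 0.700 kb against 0.574 kb in fibroblasts.

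**Figure D5:**
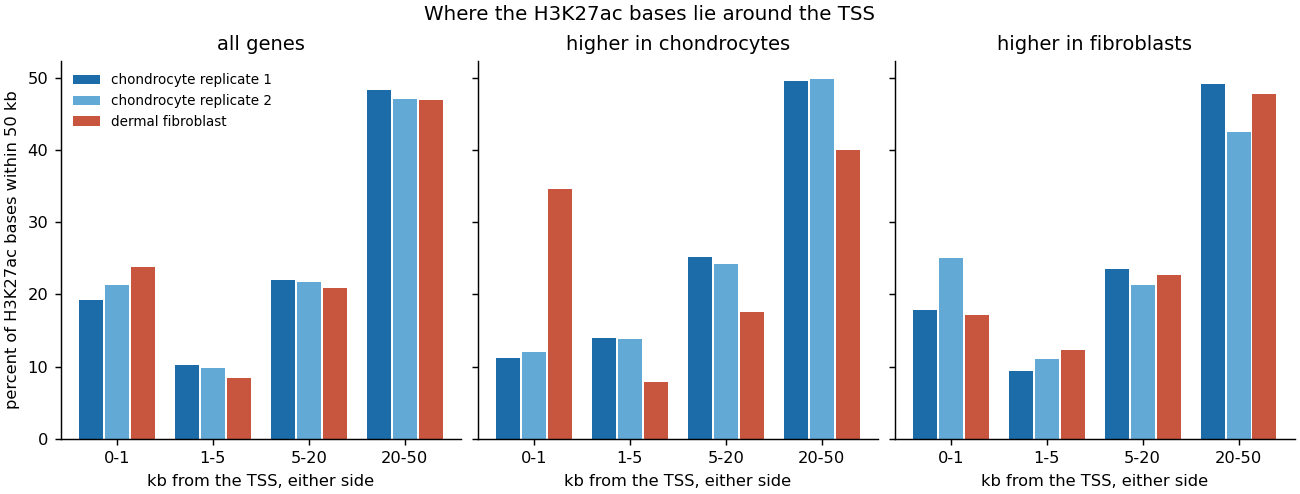
Percent of H3K27ac bases within 50 kb of the TSS that lay at 0 to 1, 1 to 5, 5 to 20 and 20 to 50 kb, for all genes, genes higher in chondrocytes and genes higher in fibroblasts in each of the 3 lists. At genes higher in chondrocytes the fibroblast bar nearest the TSS reaches 34.7% and the chondrocyte bars 11.2% and 12.03%.

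Measures that the calls did not use were set beside them. The called genes were chosen for wide or low H3K27ac in the same cell type. Medians above or below that of all genes thus follow in part from the choice, and no test was made. The median width in the WT chondrocyte list was 5.55 kb at genes higher in chondrocytes, 2.09 kb at all genes and 1.59 kb at genes higher in fibroblasts. In the E160/E308 deletion list the same medians were 3.44 kb, 1.44 kb and 0.795 kb. Some genes higher in fibroblasts were nevertheless wide in WT. Prrx2 had 19.8 kb there, Bgn 19.1 kb, Col6a2 14.2 kb and Dkk3 9.45 kb, each above the fibroblast value of the same gene. The WT list covered 36.0 Mb in all, more than the fibroblast list.

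H3K4me2 marks promoters and enhancers whether or not they are acetylated. In chondrocytes its median was 10.8 kb at genes higher in chondrocytes against 6.61 kb at all genes. This too follows in part from the choice of genes by H3K27ac in the same cell type. At genes higher in fibroblasts the chondrocyte H3K4me2 median was 6.82 kb. Of 396 such genes whose promoter lacked H3K27ac in both chondrocyte replicates, 280 carried a chondrocyte H3K4me2 promoter peak (70.7%). Among all genes, 3839 of 9977 such promoters did (38.5%). These sets were not alike, since 9215 of the 9977 had a promoter peak in none of the 3 lists, against 215 of the 396. Of 151 genes higher in chondrocytes whose promoter lacked H3K27ac in both replicates, 59 carried H3K4me2 there (39.1%). Sfrp2, En1, Irx2, Zic1 and Tbx15 were among the 280 with H3K4me2 at the promoter in chondrocytes. Osr1 and Dpt were not. At Osr1, H3K4me2 peaks lay from -4.78 to -2.86 kb and from 4.6 to 7.32 kb along the gene, with none over the promoter. H3K4me2 was measured in chondrocytes alone, so no such share is given for fibroblasts.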

How the data were processed

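H3K27ac and H3K4me2 were measured by ChIP-Seq, and the deposited peak lists were taken without change. According to the methods and the submitters' processing notes, reads were trimmed with fastp, mapped to mm9 with Bowtie2 2.4.4, and peaks were called per library with MACS2 2.2.4 against input, with a list for each library. Chondrocyte replicate 1, H3K4me2 and dermal fibroblast lists were deposited with a position and a score only, and replicate 2, WT and the deletion list as narrowPeak files, whose deposited columns hold a score, a fold enrichment and the −log10 of the p- and q-value. Scores served only to rank peaks within a list, and fold and −log10 values were not used. Replicate 2 carried GRCm38 positions: 43.7% of promoters were marked with GRCm38 TSS and 6.35% with mm9 TSS. No position was converted between builds.

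Protein-coding genes of GENCODE vM1 (mm9) were matched to RefSeq GRCm38.p6 genes by symbol (18200) or synonym (2076). The 560 genes whose TSS differed by over 25 kb between annotations, after the offset of 11 neighbouring genes, were left out, a filter added after the data were seen. Peaks on chromosomes 1 to 19 and X were counted and their width summed within 50 kb of each TSS. Width was scaled to the geometric mean of the total covered widths of the lists compared, 1 kb was added, and 2-fold in both replicates was called. The median log2 difference over all genes was 0.0 in both replicates with scaling, and 0.0 and -0.10 without.

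Named genes were the 12 with the largest smaller difference of the 2 replicates in each direction, with a promoter peak in the higher cell type and over 100 kb from a gene already named, together with called family members and genes that define either cell type. Uncharacterised gene models were not named, and some genes are not reported here. The members, gene lists and this rule were chosen with earlier results of these data known. No p-value was computed and genes are not replicates. A peak missed in the single fibroblast list can make a call, whereas the chondrocyte side needs both lists. Scores were checked against bedtools 2.31.1 and tested on simulated lists. Python 3.11.15, numpy 2.4.6, pandas 2.3.3 and matplotlib 3.10.9 were used. The input library was not analysed here.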

Additional observations from a re-analysis of the deposited data

Results flagged for a closer look

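Peaks on chromosome Y lay outside every comparison and were more numerous in chondrocyte replicate 1 than in the fibroblast control. Replicate 1 held 16 of them, the fibroblast list 2 and replicate 2 held 3.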

How the results depend on the processing

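No paired analysis was possible because the fibroblast group has 1 library. Width calls were within 1.5 times of the reported 438 and 569 genes with windows of 25 kb and 100 kb, the higher-scoring peaks, equal numbers of peaks, nearest-TSS assignment, midpoints, genes of like length and no scaling, where they came to 313 to 500 and 469 to 662. Without peaks at the TSS of any matched protein-coding gene, 764 genes were higher in chondrocytes. A pseudocount of 0.5 kb gave 1036 higher in fibroblasts, 2 kb gave 215 and 243, and 4-fold gave 55 and 67, with 41 family members called instead of 127. The WT list alone gave 708 higher in chondrocytes. With 1 replicate left out, and widths scaled over the remaining lists, width gave 680 to 799 and 887 to 1124 genes, and number 2399 to 3038 and 1026 to 1494. Number calls, 1246 and 642, were less stable. They were 589 and 341 at 25 kb, 2513 and 1153 at 100 kb, 467 and 230 with the higher-scoring peaks, 768 and 988 with equal numbers of peaks, 522 and 336 by nearest TSS, 3451 and 2671 for a difference of 1 peak, 161 and 40 for 4 peaks, and 4813 higher in chondrocytes with WT. With equal numbers of peaks the larger count changed sides. The lists of genes moved too: of 438 and 569 genes, 50 and 60 were called under all 11 alternatives that changed peaks, window, scaling or pseudocount. Added after seeing the data, every gene, genes with TSS within 5 kb and peaks of at most 5 kb kept all 4 counts within 1.5 times, and the deletion list gave 3474 higher in chondrocytes by number. Pdgfra reversed, to 0.36 with the higher-scoring peaks, 0.24 without TSS peaks, 0.0212 with the deletion list and 0.31 with peaks of at most 5 kb, and Dcn, not called as reported, was called in the chondrocyte direction at 2.45 with the higher-scoring peaks and 2.51 with peaks of at most 5 kb. Sox6, Sox9, Prrx1, Col1a1, Col11a2 and Matn1, not called as reported, were called toward chondrocytes under at least 1 alternative, and Col1a2 and Col3a1 toward fibroblasts without TSS peaks. Of the leading genes, Fosl2, Fgfr3, Tox, Wdr35, Fzd9, Hoxd3 and Osr1 lost their call under an alternative other than 4-fold. The cause was not tested. Depth limits all of these by an unknown amount.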

Other observations

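Apart from the families, some stretches of neighbouring genes were called together. They were picked after their values were seen, and because their windows overlap each stretch counts as 1 observation. In the fibroblast direction, the antigen-processing genes Tap1, Psmb9, Psmb8 and Tap2 shared 4 fibroblast peaks of 3.6 kb, against 0.434 kb in replicate 1 and 0 in replicate 2. Slfn5, an interferon-induced Schlafen gene, had 5.99 kb in fibroblasts against 1.3 kb and 0, and Isg15, an interferon-induced ubiquitin-like protein, had 3.65 kb against 0.713 kb and 0, although WT chondrocytes had 3.55 kb there. The chemokine genes Ppbp and Pf4 shared 1 fibroblast peak of 1.91 kb with Cxcl5.

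In the chondrocyte direction, the 7 kallikrein genes from Klk6 to Klk12 shared 2 peaks in each replicate, of 2.25 kb and 1.13 kb, with 0 in fibroblasts, and the Klk10 promoter was marked in both replicates. The keratin genes Krt16 and Krt17 had 5.02 kb and 4.35 kb against 0, without a promoter peak in any of the 3 lists. WT and the deletion list held 4.65 kb and 4.91 kb at Krt17.

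At 5 genes called higher in fibroblasts by width, peak number went the other way. They were Ing3 and the neighbours Bgn, Haus7, Atp2b3 and Trex2, with 3 fibroblast peaks against 5 or more in each replicate at the last 4. No gene called higher in chondrocytes by width was lower there by number.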
